A study of Mus musculus with 6 samples.

Results

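The genes described here are 9 natural killer (NK) cell receptor and effector genes of the mouse, chosen by name: the receptors Ncr1, Klrb1c, Klrk1, Klrd1, Klre1, Klrc1 and Klrg1, the granule protein gene Nkg7 and the death ligand gene Fasl. All 9 were among the 23557 genes of a bulk RNA sequencing table of CT26 tumors, and all 9 passed the filter on low counts. CT26, a mouse colorectal carcinoma line from the BALB/c strain, was injected under the skin of female BALB/c mice (500000 cells each), which are immunocompetent and, by the study's methods, were 7 weeks old. In the H89 group, 3 mice received H89, an inhibitor of protein kinase A and other kinases, at 10 mg/kg into the peritoneal cavity, with 2 injections a week that began 6 days after the cells. In the NaCl group, 3 mice received the NaCl vehicle by the same route. Tumors of both groups were removed 14 days after the cells had been given, and each was sequenced as 1 library. The comparison addresses whether transcripts of NK and related cytotoxic cells differed between treated and untreated tumors.

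NK cells are innate lymphocytes that kill tumor and infected cells without prior priming. They weigh signals from activating receptors, which bind stress ligands, against signals from inhibitory receptors, which bind class I molecules of the major histocompatibility complex or cadherins on healthy cells. Killing follows through granules that hold perforin and granzymes, or through death ligands such as FasL, which engages the receptor Fas on the target. Many of these genes are shared with other lymphocytes: NKG2D, CD94, NKG2A, KLRG1, NKG7 and FasL are also made by activated CD8+ T cells, whereas NKp46 is largely restricted to NK cells and related innate lymphoid cells. BALB/c mice do not display the NK1.1 epitope, because their Klrb1 genes differ in sequence from those of the reference strain.

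The table held 27067349 to 31958793 estimated reads per tumor, and 1 read corresponded to 0.0313 to 0.0369 CPM, the counts scaled to 1000000 per tumor. The CPM given below were scaled with edgeR's TMM factors, which ranged from 0.956 to 1.06. In a bulk tumor, fewer cells of a type and less RNA per cell cannot be told apart. The summed CPM of 15 T cell markers ranged from 45.1 to 97.3 in NaCl tumors and from 79.2 to 150.1 in H89 tumors. Thy1 was the largest part of that sum, at a mean of 34.2 CPM in the NaCl group and 37.8 CPM in the H89 group. The summed CPM of 5 genes of all leukocytes, Ptprc (CD45) among them, ranged from 376 to 463 in NaCl tumors and from 402 to 582 in H89 tumors. Of 7 epithelial markers, Krt18 was detected most, at 13.2, 13.4 and 23.5 CPM in NaCl tumors and 8.31, 7.75 and 8.27 CPM in H89 tumors. Krt8, Krt19 and Cdh1 were at 2.84 CPM or less in every tumor, and Epcam, Cdx1 and Cdx2, at 1.18 CPM or less, were too low to be tested. Neither the labels nor the methods name a sequencing batch or date.

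All 9 genes had a higher mean in H89 tumors than in NaCl tumors, where 50.6% of the 13118 genes tested had a log2 fold change above 0. The largest differences were those of Klrd1, Klre1, Klrk1 and Ncr1, at 2.74-fold to 4.10-fold, and the smallest was that of Klrg1, at 1.21-fold. The median log2 fold change of the 9 genes was 1.33, and it was 0.004 over all genes tested. A log2 fold change above 1 was reached by 7 of the 9 genes and by 2.70% of all genes. With edgeR's quasi-likelihood test, 4 of the 9 genes had an unadjusted p under 0.05 with a higher level in H89 tumors, where 13.1% of all genes did. No member passed after adjustment: 0 of 9 had a p under 0.05 in edgeR's test once adjusted by the Benjamini-Hochberg method, where 0.861% of all genes had one and were higher in H89 tumors. With DESeq2's Wald test, run on every gene with a count and with DESeq2's own filter on low means, 4 of 9 passed that threshold (Klrd1, Klrk1, Klre1 and Ncr1), where 4.94% of the genes with an adjusted p passed and were higher. With voom and array weights, 1 of 9 did (Klrd1), where 6.08% of all genes did and were higher. All 3 H89 tumors lay above all 3 NaCl tumors for Klrd1, Klre1 and Klrk1, that is for 3 of 9 genes, where this held for 15.2% of all genes. The opposite held for 0 of the 9 genes and for 15.5% of all genes. The split of calls over all genes was 113 higher and 95 lower in edgeR's test, 123 and 128 with median ratio size factors in the same test, and 55 and 25 with limma after quantile normalization.

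**Figure D1:**
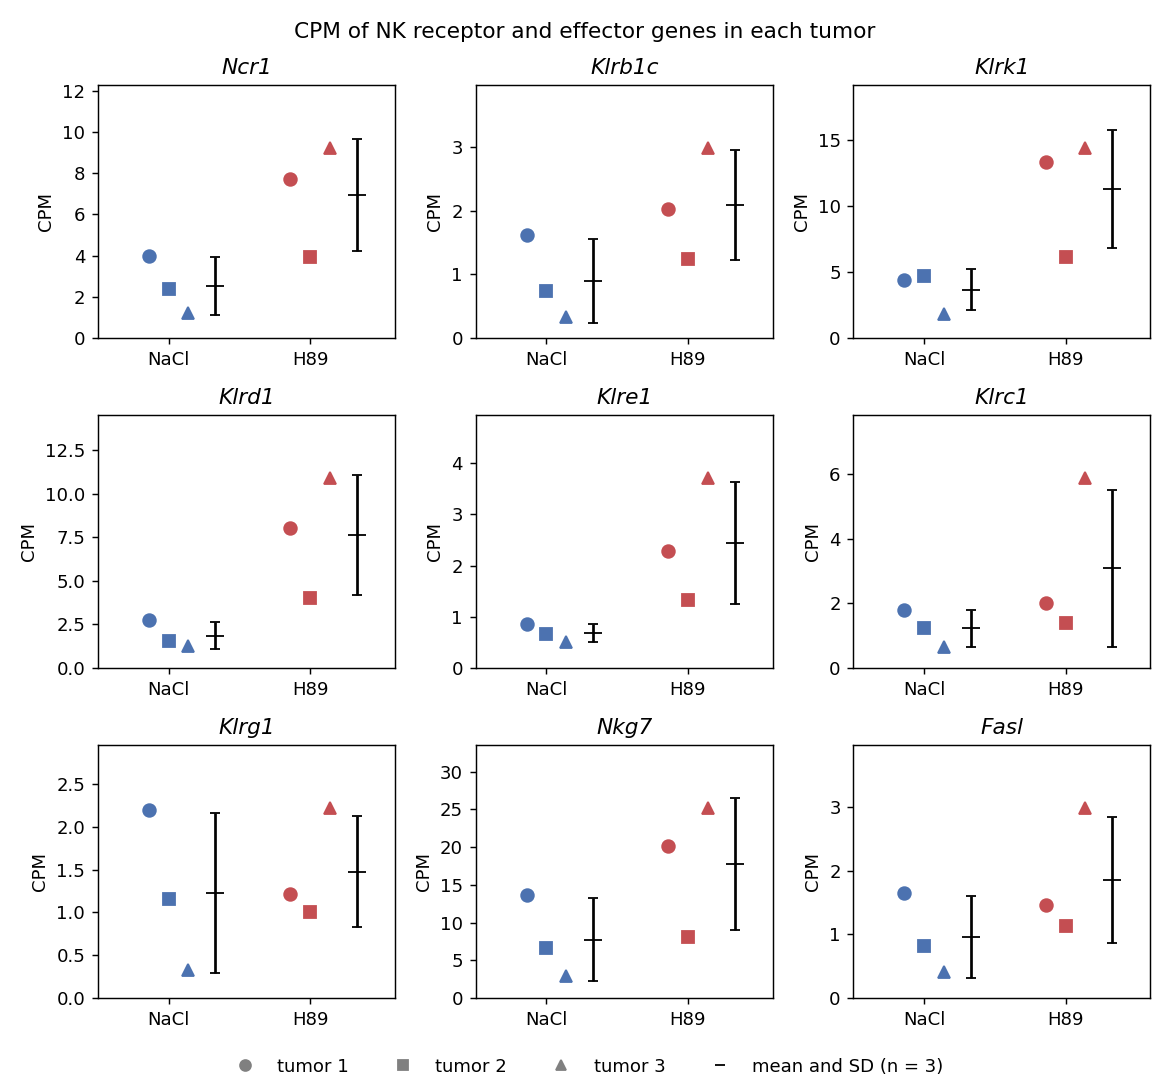
CPM of each of the 9 genes (vertical axes, linear from 0) in the 3 NaCl tumors (blue) and the 3 H89 tumors (red), with the marker shape giving the tumor number and the black bar the mean and SD of 3 tumors. H89 tumor 3 held the highest H89 value and NaCl tumor 3 the lowest NaCl value of every gene, and the groups were separate for Klrk1, Klrd1 and Klre1.

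Promoter sequence was not used to choose the 9 genes. RefSeq promoter windows (GRCm38.p6) were matched by symbol for 7 of the 9 genes, with Klrd1 and Klrg1 not among them, and the 250 bases before the start were searched on both strands. The motifs were TGTGGT, the core bound by RUNX factors, TCACACC, bound by T-box factors such as T-bet and Eomes, and TTCNNNGAA, bound by STAT factors. They were chosen with several of the sequences in view. The RUNX core was found in 6 of the 7 genes, all but Fasl, where 14.0% of the 32851 windows of that length held it. T-box and STAT motifs were found in 1 member each, Nkg7 for both, where 3.33% and 7.02% of all windows held them. Because of how the motifs were chosen, these shares are no baseline for the members. They also count windows, whereas a member counts if any of its windows holds the motif. A match describes letters in a window and is not evidence of binding. The windows that follow are those of 2 activating receptors with an unadjusted p under 0.05, Ncr1 and Klrk1, of the inhibitory receptor Klrc1 and of Fasl, the only matched member without a match, with motif matches in capitals. Those of Klrb1c, Klre1 and Nkg7 overlap the GENCODE model of their gene and are not printed.
Ncr1, chr7:4337465-4337714, plus strand: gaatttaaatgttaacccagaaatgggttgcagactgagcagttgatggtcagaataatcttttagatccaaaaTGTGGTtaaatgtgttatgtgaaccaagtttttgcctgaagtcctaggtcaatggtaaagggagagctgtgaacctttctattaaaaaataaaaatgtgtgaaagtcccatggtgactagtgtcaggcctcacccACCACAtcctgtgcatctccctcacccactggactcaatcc
Klrk1, chr6:129623865-129624114, minus strand: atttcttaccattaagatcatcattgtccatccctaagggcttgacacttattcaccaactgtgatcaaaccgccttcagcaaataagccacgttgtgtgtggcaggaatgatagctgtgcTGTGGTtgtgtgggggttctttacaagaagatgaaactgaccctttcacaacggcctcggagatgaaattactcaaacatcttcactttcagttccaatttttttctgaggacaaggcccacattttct
Klrc1, chr6:129678974-129679223, minus strand: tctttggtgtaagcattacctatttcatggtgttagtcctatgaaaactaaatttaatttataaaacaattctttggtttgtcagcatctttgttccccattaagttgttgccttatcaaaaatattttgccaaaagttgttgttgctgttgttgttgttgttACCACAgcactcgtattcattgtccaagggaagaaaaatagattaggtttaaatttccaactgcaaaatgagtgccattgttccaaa
Fasl, chr1:161788496-161788745, minus strand: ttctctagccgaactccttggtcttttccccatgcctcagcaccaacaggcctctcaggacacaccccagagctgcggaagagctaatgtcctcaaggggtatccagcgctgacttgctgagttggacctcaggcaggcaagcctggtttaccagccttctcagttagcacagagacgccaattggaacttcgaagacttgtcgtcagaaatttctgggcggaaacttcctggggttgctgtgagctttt

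In the Ncr1 window the RUNX core began 176 and 41 bases before the start, in that of Klrk1 at 129 bases and in that of Klrc1 at 87 bases. It began at 89 bases for Klrb1c, at 229 bases for Klre1 and at 83 bases for Nkg7. A second RefSeq start of Klre1 lies 73 bases downstream, and its window held none of the motifs.

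Among the activating receptors, Ncr1 encodes NKp46, the receptor most used to define NK cells across mouse strains. Ncr1 (ENSMUSG00000062524) lies on chromosome 7 from 4337724 to 4345164 on the plus strand (GENCODE M21, GRCm38, as are all gene positions here). NaCl tumors 1 to 3 had an Ncr1 level of 3.99, 2.39 and 1.21 CPM, and the level was 7.70, 3.92 and 9.21 in H89 tumors 1 to 3. H89 tumors 1 and 3 stood above every NaCl tumor, and H89 tumor 2 lay just under NaCl tumor 1. The log2 fold change was 1.45 ± 0.45 (SE, unadjusted p = 0.0127 and adjusted p = 0.110 by edgeR), and an exact permutation test, which has 10 distinct splits here, gave p = 0.2, where the smallest possible p is 0.1. This overlap turned on the scaling. With CPM taken from the library total alone, an alternative added after the data had been seen, H89 tumor 2 was at 4.04 and NaCl tumor 1 at 3.82, so that the groups of Ncr1 were separate.

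Klrk1 encodes NKG2D, an activating receptor for stress-induced ligands of the Raet1, H60 and Ulbp1 genes that signals through the adaptor DAP10. Klrk1 (ENSMUSG00000030149, chromosome 6 from 129610323 to 129623864, minus strand) had a CPM of 4.42, 4.70 and 1.86 in NaCl tumors and 13.4, 6.14 and 14.4 in H89 tumors 1 to 3. Every H89 tumor lay above every NaCl tumor, although H89 tumor 2 was much nearer to the NaCl tumors than to the other H89 tumors. Its log2 fold change was 1.62 ± 0.41 (SE, unadjusted p = 0.00450 and adjusted p = 0.0813 by edgeR), and the exact permutation test gave p = 0.1.

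Klrb1c encodes NKR-P1C, an activating receptor that carries the NK1.1 epitope in the reference strain. Klrb1c (ENSMUSG00000030325, chromosome 6 from 128778485 to 128789215, minus strand) had a CPM of 1.62, 0.746 and 0.329 in NaCl tumors and 2.03, 1.25 and 2.98 in H89 tumors 1 to 3. H89 tumor 2 was below NaCl tumor 1, so the groups overlapped. Klrb1c had a log2 fold change of 1.21 ± 0.54 (SE, unadjusted p = 0.0574 and adjusted p = 0.214 by edgeR), and the exact permutation test gave p = 0.2. Its exons overlap Gm44511 on the same strand, and its estimated counts were fractional, by as much as 0.272, which arises when a read is shared out over several transcripts. The summed CPM of the Klrb1 family (Klrb1, Klrb1a, Klrb1b, Klrb1c and Klrb1f), an addition made after the data had been seen, is free of reads moved within that family. It was 4.64, 3.24 and 2.49 in NaCl tumors and 6.92, 5.23 and 8.66 in H89 tumors, with the groups separate and an exact permutation p = 0.1. Klrb1c was a minor part of this sum, with means of 0.898 of 3.46 CPM in the NaCl group and 2.09 of 6.94 CPM in the H89 group. Klrb1b and Klrb1f, which encode distinct receptors, were separate between groups on their own. The sum is thus no separate reading of Klrb1c.

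Klrd1 encodes CD94, which pairs with the products of the Klrc genes into receptors for Qa-1, the nonclassical class I molecule encoded by H2-T23. Klrd1 (ENSMUSG00000030165, chromosome 6 from 129591782 to 129598775, plus strand) showed the largest fold change of the 9. Its CPM was 2.73, 1.57 and 1.28 in NaCl tumors and 8.02, 4.04 and 10.9 in H89 tumors 1 to 3, which rests on 35 to 76 counts per NaCl tumor and 133 to 358 counts per H89 tumor. The lowest H89 tumor was above the highest NaCl tumor. Klrd1 reached a log2 fold change of 2.04 ± 0.42 (SE, unadjusted p = 0.00126 and adjusted p = 0.0563 by edgeR), and the exact permutation test gave p = 0.1. The adjusted p of Klrd1 was 0.0406 without the filter on low counts, 0.0409 with voom and array weights and 3.36e-05 with DESeq2, so its side of the threshold depended on the test and the filter.

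Klrc1 encodes NKG2A, the inhibitory partner of CD94. Klrc1 (ENSMUSG00000030167, chromosome 6 from 129666015 to 129678973, minus strand) had a CPM of 1.80, 1.23 and 0.658 in NaCl tumors and 2.00, 1.40 and 5.87 in H89 tumors 1 to 3. Only H89 tumor 3 stood well apart from the NaCl tumors. For Klrc1 the log2 fold change was 1.33 ± 0.59 (SE, unadjusted p = 0.0533 and adjusted p = 0.206 by edgeR), the exact permutation test gave p = 0.2, and without H89 tumor 3 the log2 fold change was 0.46. Klrc1 counts were fractional by as much as 0.367, and the related Klrc2 and Klrc3 could share reads with it. Summed over the 3 Klrc genes, the CPM was 2.55, 1.53 and 0.914 in NaCl tumors and 3.35, 2.01 and 8.33 in H89 tumors, and the groups still overlapped. The ratio of Klrd1 to Klrc1 counts, a pair examined after the values were seen, was 1.52, 1.27 and 1.94 in NaCl tumors and 4.02, 2.89 and 1.85 in H89 tumors. CD94 transcripts thus stood highest over NKG2A transcripts in H89 tumors 1 and 2, while the ratio of H89 tumor 3 was no higher than that of NaCl tumor 3.

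Klre1 encodes NKG2I, a lectin-like receptor that pairs with the products of Klri1 or Klri2. Klre1 (ENSMUSG00000050241, chromosome 6 from 129577905 to 129585827, plus strand) had a CPM of 0.863, 0.671 and 0.512 in NaCl tumors and 2.28, 1.34 and 3.71 in H89 tumors 1 to 3. The groups were separate, and the NaCl tumors varied less for Klre1 than for any other member, with a coefficient of variation of 25.8%. For Klre1 the log2 fold change was 1.83 ± 0.42 (SE, unadjusted p = 0.00238 and adjusted p = 0.0682 by edgeR), and the exact permutation test gave p = 0.1. Klre1 counts were fractional by as much as 0.458. Its partner gene Klri2 had a CPM of 2.12, 1.79 and 0.694 in NaCl tumors and 5.42, 2.92 and 6.29 in H89 tumors, again with separate groups, and a log2 fold change of 1.66 ± 0.44 (SE, adjusted p = 0.0827 by edgeR).

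Klrg1 encodes an inhibitory receptor for cadherins that marks terminally differentiated NK and CD8+ T cells. Klrg1 (ENSMUSG00000030114, chromosome 6 from 122270596 to 122282882, minus strand) was the gene of the 9 with the smallest difference. Its CPM was 2.19, 1.16 and 0.329 in NaCl tumors and 1.21, 1.00 and 2.22 in H89 tumors 1 to 3, and the value of NaCl tumor 3 rests on 9 counts. NaCl tumor 1 and H89 tumor 3 were nearly level. With Klrg1, the log2 fold change was 0.27 ± 0.59 (SE, unadjusted p = 0.662 and adjusted p = 0.806 by edgeR), the exact permutation test gave p = 0.6, and the direction of Klrg1 turned to -0.18 without NaCl tumor 3 and to -0.15 without H89 tumor 3. The ratio of Klrd1 to Klrg1 counts, also examined after the values were seen, was 1.25, 1.35 and 3.89 in NaCl tumors and 6.62, 4.03 and 4.90 in H89 tumors. The ratio groups were separate, but only narrowly, between NaCl tumor 3 and H89 tumor 2.

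Nkg7, which encodes a granule membrane protein needed for efficient release of cytotoxic granules, had the highest level of the 9 per kilobase of transcript. Nkg7 (ENSMUSG00000004612, chromosome 7 from 43437073 to 43438249, plus strand) had a CPM of 13.7, 6.68 and 2.85 in NaCl tumors and 20.1, 8.05 and 25.2 in H89 tumors 1 to 3. H89 tumor 2 lay below NaCl tumor 1. Nkg7 differed by a log2 fold change of 1.20 ± 0.57 (SE, unadjusted p = 0.0682 and adjusted p = 0.234 by edgeR), and the exact permutation test gave p = 0.2. Fasl encodes the membrane ligand that triggers apoptosis through Fas. Fasl (ENSMUSG00000000817, chromosome 1 from 161780689 to 161788495, minus strand) had a CPM of 1.65, 0.820 and 0.402 in NaCl tumors and 1.46, 1.12 and 2.98 in H89 tumors 1 to 3. H89 tumors 1 and 2 were within the NaCl range, and only H89 tumor 3 was above it. Fasl had a log2 fold change of 0.95 ± 0.54 (SE, unadjusted p = 0.119 and adjusted p = 0.313 by edgeR), the exact permutation test gave p = 0.3, and without H89 tumor 3 the log2 fold change was 0.42.

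The tumors took nearly the same order for every gene. H89 tumor 3 had the highest and H89 tumor 2 the lowest value among H89 tumors for 9 of 9 genes. Among NaCl tumors, tumor 3 was lowest for 9 of 9 and tumor 1 highest for 8 of 9, with Klrk1 the exception. The summed CPM of the 9 genes was 32.95, 19.95 and 9.43 in NaCl tumors and 58.2, 28.3 and 77.4 in H89 tumors 1 to 3. This sum overlapped between the groups, as H89 tumor 2 was below NaCl tumor 1. The 9 genes are therefore not 9 independent readings, since a tumor that was high or low within its group was so for nearly all of them. When each tumor was omitted in turn, the log2 fold change of Klrd1 ranged from 1.69 to 2.42, that of Klre1 from 1.39 to 2.13, that of Klrk1 from 1.31 to 1.92 and that of Ncr1 from 1.12 to 1.95. For the 5 other genes these ranges were wider, with Nkg7 from 0.80 to 1.90 and Klrb1c from 0.81 to 1.95. NaCl tumor 1 had the strongest pull: without it, 8 of the 9 genes were higher with an unadjusted p under 0.05 in edgeR's test, where 12.0% of all genes were, and the median log2 fold change of the 9 was 1.90, but still 0 had an adjusted p under 0.05. Without H89 tumor 2, 7 of the 9 were higher with an unadjusted p under 0.05, where 10.4% of all genes were, and without H89 tumor 3 the median log2 fold change was 0.86.

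**Figure D2:**
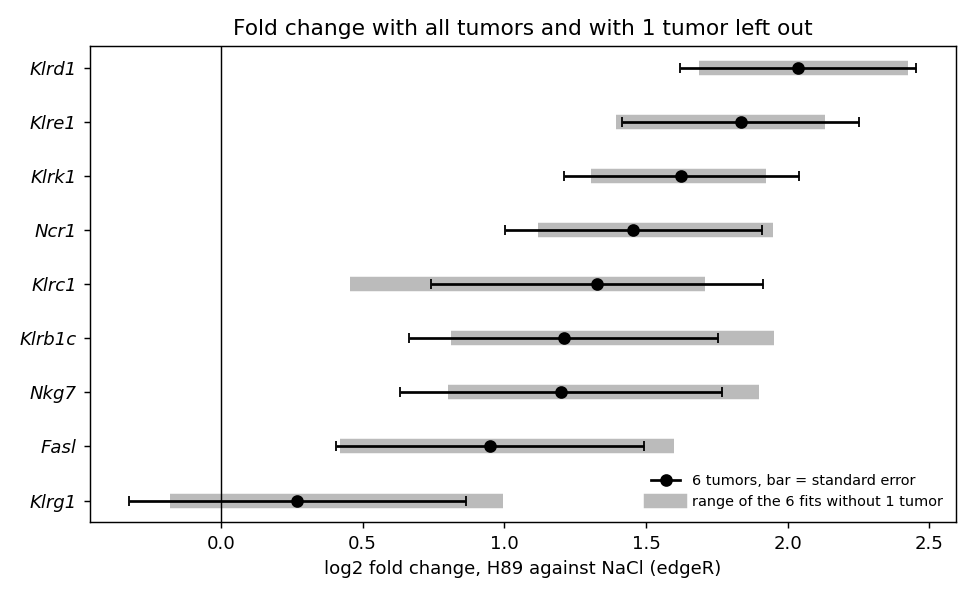
Log2 fold change of H89 against NaCl tumors for each gene in edgeR's test (horizontal axis), with points and bars for the estimate and standard error from 6 tumors and grey bands for the range of the 6 fits that left out 1 tumor. The band of Klrg1 spans 0, from -0.18 to 1.00, and the other 8 bands lie above 0.

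Levels were compared between genes per kilobase of the longest coding transcript. In NaCl tumors, Nkg7 was highest at 8.78 ± 6.23 CPM per kilobase (SD, n = 3), followed by Klrd1 at 2.02 ± 0.838 and Ncr1 at 1.69 ± 0.936, and Klrb1c was lowest at 0.342 ± 0.251. Only the step from Nkg7 to Klrd1 was wider than the larger SD of the neighbors. In H89 tumors, the order began in the same way, with Nkg7 at 20.2 ± 9.98, Klrd1 at 8.32 ± 3.74, Ncr1 at 4.64 ± 1.82 and Klrk1 at 3.54 ± 1.41 CPM per kilobase (SD, n = 3). Klre1 stood seventh in NaCl tumors, at 0.527 ± 0.136, and the fifth in H89 tumors, at 1.89 ± 0.923, while Klrg1 went from the fifth place to the seventh. In H89 tumors the steps from Nkg7 to Klrd1 and from Klrk1 to Klre1 were wider than the larger SD, and the other neighbors did not differ beyond their spread.

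Because T cells make several of these transcripts, each gene was also set against the CD3 genes, which encode the signaling chains of the T cell receptor. The summed CPM of Cd3d, Cd3e and Cd3g was 8.96, 4.77 and 4.06 in NaCl tumors and 15.8, 6.99 and 24.2 in H89 tumors 1 to 3, with the tumors in the same order within each group as for 8 of the 9 genes. Relative to this sum, Klrd1 was at a log2 ratio of -1.71, -1.61 and -1.67 in NaCl tumors and at -0.98, -0.79 and -1.15 in H89 tumors, a difference of 0.69 with separate groups. For Klre1 the difference in log2 ratio was 0.44, again with separate groups. The difference was 0.33 for Klrk1 and 0.22 for Ncr1, both with overlapping groups. It was 0.10 for Klrb1c, 0.01 for Nkg7, -0.15 for Klrc1, -0.26 for Fasl and -0.75 for Klrg1. In all, 2 of the 9 genes were higher in every H89 tumor relative to CD3, where 0.0686% of all genes were. That share is low by construction, because the mean CD3 sum was itself 2.64-fold higher in H89 tumors. A gene without a difference falls relative to it, so the share is no baseline for the 2 genes. The mean leukocyte sum was 1.17-fold higher, which lowers the next share in the same way. Relative to the 5 leukocyte genes, 4 of the 9 (Ncr1, Klrk1, Klrd1 and Klre1) were, where 4.14% of all genes were. The largest part of that leukocyte sum was Laptm5, at a mean of 248 CPM in the NaCl group and 243 CPM in the H89 group. Ptprc was at 28.8 CPM in the NaCl group and 58.0 CPM in the H89 group, and ratios to Ptprc alone were not computed. No p was computed for the ratios to CD3 and to the leukocyte sum, and the part of T cells in the differences was not tested. The sum over Ncr1, Eomes, Itga2, Klrb1c and Klre1, which are used as NK markers although CD8+ T cells also make Eomes and other cells Itga2, was 10.8, 8.24 and 4.28 CPM in NaCl tumors and 18.3, 11.1 and 25.4 CPM in H89 tumors, with 3 of these 5 being members.

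**Figure D3:**
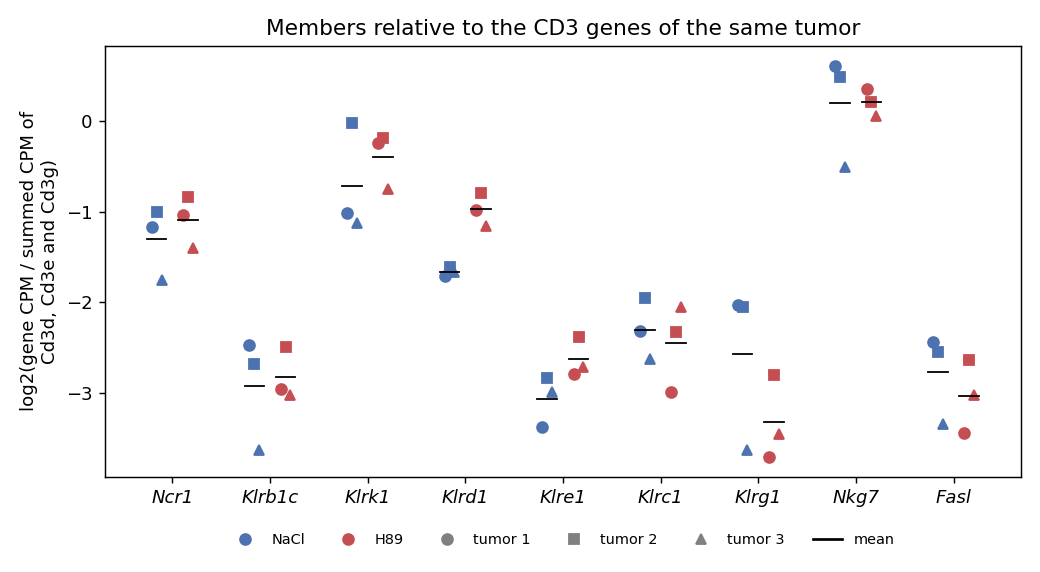
Log2 ratio of each gene's CPM to the summed CPM of Cd3d, Cd3e and Cd3g in the same tumor (vertical axis), for NaCl (blue) and H89 tumors (red), with the marker shape for the tumor number and black lines for group means. The red and blue points are separate for Klrd1 and Klre1 and overlap for the other 7 genes.

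The other receptors of the NK gene complex on chromosome 6, a region that holds the Klr and Ly49 (Klra) genes, were mostly higher in H89 tumors too. Of 22 such genes listed, 9 could be tested and 4 were at 0 in every tumor. Of the 9, 8 were higher in H89 tumors, with a median log2 fold change of 1.44. By edgeR, 5 were higher with an unadjusted p under 0.05, where 13.1% of all genes were, and 0 had an adjusted p under 0.05. Some of the 9 passed the filter of 0.5 CPM only through the H89 group, which favors higher values in this count and median. Klrc2 was 1 of them, with a mean of 0.327 CPM in the NaCl group and 1.29 CPM in the H89 group. Besides Klri2, the smallest p belonged to Klrb1f (log2 fold change 1.44 ± 0.36 SE, adjusted p = 0.0800 by edgeR) and Klrb1b (1.59 ± 0.49 SE, edgeR adjusted p = 0.110), relatives of Klrb1c that bind lectins of the Clec2 family. The highest CPM was that of Klra2, at 10.2 ± 0.784 CPM (SD, n = 3) in the NaCl group and 14.0 ± 5.29 CPM in the H89 group, a log2 fold change of 0.46 (edgeR adjusted p = 0.289). Ly49 gene content differs between strains, and the processing notes name the reference strain's build, GRCm38. Among 14 other NK receptors tested, 11 were higher and 3 lower. Slamf6 (1.62, edgeR adjusted p = 0.0615), Cd27 (1.67, edgeR adjusted p = 0.0653) and Slamf7 (1.501, edgeR adjusted p = 0.116) had the smallest p, all with separate groups. Slamf7, Cd226 and Crtam, at means of 0.377, 0.304 and 0.268 CPM in the NaCl group, passed the filter only through the H89 group. Over the 14, all H89 tumors lay above all NaCl tumors for 5 genes and below them for 1, where 15.2% and 15.5% of all genes did. Slamf7, Cd226 and Crtam are among the 5, so the filter favored that count and the 15.2% is no baseline for it. The gene that was lower in every H89 tumor was Tigit (log2 fold change -0.34, edgeR adjusted p = 0.166). Il18rap, with the highest CPM of that list, had a log2 fold change of 0.09 (edgeR adjusted p = 0.587). The 14 adaptors and proximal signaling genes had a median log2 fold change of 0.39. Cd247, the zeta chain that Ncr1 signals through, was at 1.69 ± 0.618 CPM (SD, n = 3) in the NaCl group and 3.23 ± 0.498 CPM in the H89 group (log2 fold change 0.93, edgeR adjusted p = 0.113). Vav1 had a log2 fold change of 0.55 and Ptpn6 one of 0.47 (edgeR adjusted p = 0.123 and 0.122), and the adaptor gene with the highest CPM, Fcer1g, had a log2 fold change of 0.23 (edgeR adjusted p = 0.407).

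Ligands of these receptors were measured in the same tumors. H2-T23, which encodes the Qa-1 ligand of the CD94 receptors, had a CPM of 60.4, 59.3 and 31.7 in NaCl tumors and 156, 75.4 and 136 in H89 tumors 1 to 3. Every H89 tumor was above every NaCl tumor, with a log2 fold change of 1.28 ± 0.32 (SE, adjusted p = 0.0796 by edgeR). Nectin2, a ligand of the activating receptor DNAM-1 and of TIGIT, was lower in every H89 tumor, at 36.9 ± 1.76 CPM (SD, n = 3) in the NaCl group and 28.7 ± 1.30 CPM in the H89 group (log2 fold change -0.36, edgeR adjusted p = 0.0729). Pvr, a further ligand of both receptors and the ligand gene with the highest CPM, had a log2 fold change of -0.38 with overlapping groups (edgeR adjusted p = 0.212). Clec2i, which encodes a lectin ligand of Klrb1 family receptors, had a log2 fold change of 0.83 with separate groups (edgeR adjusted p = 0.171). Over the 14 ligand genes tested, 12 were higher and 2 lower, and the median log2 fold change was 0.24. With an unadjusted p under 0.05 by edgeR, 4 were higher and 1 lower. Over all genes, 13.1% were higher at that threshold and 25.0% passed it in either direction.

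Fasl belongs to the death receptor pathway, whose other genes mostly showed small differences. The 11 genes tested, Fasl included, had a median log2 fold change of 0.05, with 6 higher and 5 lower. Tnfsf10, which encodes the death ligand TRAIL, was at 4.75, 4.92 and 2.78 CPM in NaCl tumors and 10.1, 5.62 and 10.9 CPM in H89 tumors 1 to 3, with separate groups and a log2 fold change of 1.10 ± 0.31 (SE, adjusted p = 0.0942 by edgeR). The gene of its receptor, Tnfrsf10b, was lower in every H89 tumor, with a log2 fold change of -0.28 (edgeR adjusted p = 0.152). Casp8, the initiator caspase under Fas, and Cflar, its inhibitor, had log2 fold changes of 0.26 and -0.24 (edgeR adjusted p = 0.205 and 0.277).

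Nkg7 acts in the cytotoxic granule, and of 11 granule genes tested 9 were higher and 2 lower, with a median log2 fold change of 0.43. Over all genes tested, 50.6% had a log2 fold change above 0. Ctsw, which encodes a cathepsin of cytotoxic lymphocytes, was at 4.78, 3.21 and 2.27 CPM in NaCl tumors and 11.5, 5.77 and 12.04 CPM in H89 tumors 1 to 3 (log2 fold change 1.51 ± 0.35 SE, adjusted p = 0.0722 by edgeR). Unc13d, which primes granules for release, had a log2 fold change of 0.89 (edgeR adjusted p = 0.117), and Lamp1, a lysosomal membrane protein of nearly all cells, one of -0.23 (edgeR adjusted p = 0.157). The perforin gene Prf1 and the granzyme genes Gzma, Gzmb and Gzmc had log2 fold changes of 0.43, 0.99, 0.79 and -0.79. Their groups overlapped (edgeR adjusted p = 0.772, 0.259, 0.483 and 0.616). Of 11 NK lineage and identity genes tested, 9 were higher and 2 lower, with a median log2 fold change of only 0.17. Among them, Tbx21, which encodes T-bet, had a log2 fold change of 1.42 ± 0.55 (SE, adjusted p = 0.169 by edgeR) and Eomes, which directs NK maturation, one of 0.93 ± 0.37 (SE, adjusted p = 0.178 by edgeR), both with overlapping groups. Zeb2, a factor of NK maturation that many other cells express, had one of 0.09 (edgeR adjusted p = 0.792). The 2 lower genes were Nfil3, with a log2 fold change of -0.52 (edgeR adjusted p = 0.217), and Ets1, with one of -0.08 (edgeR adjusted p = 0.745). The lineage list held the single listed gene that passed the adjusted threshold, Styk1, which encodes a receptor-like kinase. Over all genes tested, 0.861% passed that threshold and were higher in H89 tumors. Styk1 rose from 27.3, 31.9 and 27.9 CPM in NaCl tumors to 45.6, 40.8 and 50.5 CPM in H89 tumors 1 to 3 (log2 fold change 0.65 ± 0.11 SE, adjusted p = 0.0416 by edgeR). Its NaCl tumors did not follow the order of the 9 genes. Of 12 genes of cytokines and receptors of NK growth and activation, 12 were higher in H89 tumors, with a median log2 fold change of 0.95. By edgeR, 7 of them had an unadjusted p under 0.05, where 13.1% of all genes did and were higher, and 0 had an adjusted p under 0.05. In that list, Il18r1 (1.40, edgeR adjusted p = 0.0593), Il15ra (1.34, edgeR adjusted p = 0.116) and Xcl1 (1.03, edgeR adjusted p = 0.133) had the smallest p, and Il2rg (0.28, edgeR adjusted p = 0.237) had the highest CPM. The 14 T cell markers tested, among them Cd3e (log2 fold change 1.17), Cd8a (1.76) and Cd4 (0.68), had a median log2 fold change of 1.19, with adjusted p of 0.211, 0.104 and 0.277 by edgeR for these 3 genes. Of the 14, 7 were higher with an unadjusted p under 0.05 by edgeR, where 13.1% of all genes were. All H89 tumors lay above all NaCl tumors for 0 of the 14, where this held for 15.2% of all genes. Ptprc, the gene of CD45, had a log2 fold change of 1.01 (edgeR adjusted p = 0.0547). The median was 0.02 for 9 macrophage markers, 0.33 for 6 fibroblast genes, -0.32 for 6 endothelial genes, -0.15 for 5 neutrophil genes and 0.60 for 3 B cell genes.

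**Figure D4:**
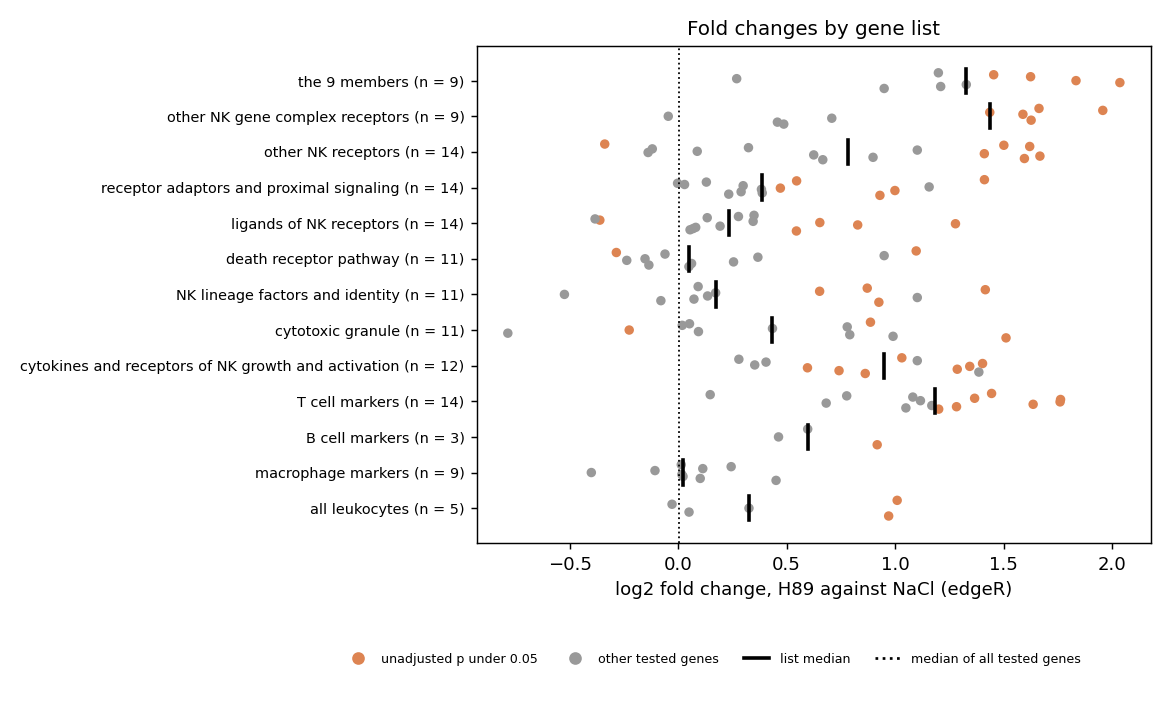
Log2 fold change of H89 against NaCl tumors (horizontal axis) of each tested gene in the lists (rows, with the number of genes), where orange points had an unadjusted p under 0.05, black bars give list medians and the dotted line the median over all genes tested. The 9 members (median 1.33), the other receptors of the NK gene complex (1.44) and the T cell markers (1.19) lie furthest to the right, and the death receptor genes (0.05) and macrophage markers (0.02) lie near the dotted line.

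Outside the 9 genes, those whose levels followed them most closely over the 6 tumors were Lag3 (Pearson r = 0.999), Cd274 (0.996), Zcchc2 (0.995), Sema4d (0.995) and Pias1 (0.995), by the correlation of log2(CPM + 0.5) with the mean z-score of the members. These correlations describe 6 points that share libraries and depth, and they were picked as the highest of all tested genes. Lag3, an inhibitory receptor of activated T and NK cells, was at 4.68, 2.80 and 1.53 CPM in NaCl tumors and 7.31, 3.95 and 11.5 CPM in H89 tumors. Cd274, which encodes PD-L1, was at 35.002, 22.6 and 13.2 CPM in NaCl tumors and 42.5, 28.5 and 73.6 CPM in H89 tumors. Zcchc2 and Pias1 kept the order of the tumors with differences of only 0.11 and 0.09 in log2 fold change.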

How the data were processed

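Total RNA of the flash-frozen tumors was isolated with Trizol and sequenced by BGI, and the authors deposited a single table of estimated counts per gene. The table is named TPM, but each tumor's values summed to 27067349 to 31958793, and 58.6% to 61.4% of its nonzero values were whole to within 0.01. The submitters' processing notes list kallisto, DESeq2 and GRCm38 without versions or roles. The annotation and any filter are not given in the sources used here. Groups and tumor numbers came from the sample titles, and the tumors are from separate mice. Of the gene columns, 186 were listed one by one and the other 23371 were read in the same way.

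The counts were rounded to whole numbers. A filter on the mean over all 6 tumors (0.5 CPM or more) left 13118 genes, which were tested with edgeR 4.0.16 (R 4.3.3; TMM, glmQLFit, glmQLFTest, treatment as the only term), and p-values were adjusted over all of them by the Benjamini-Hochberg method. Standard errors (SE) were derived from the fold change and the F statistic, as |log2 fold change|/√F. For single genes, an exact permutation test (two-sided) was run on log2(CPM + 0.5). The alternatives used limma 3.58.1, voom, DESeq2 1.42.0, other filters, pseudocounts and scalings, a block for the tumor number, and fits on 5 of the 6 tumors.

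The 9 genes and all lists were chosen with earlier results of these data known. Named besides the 9 were, from each pathway list, genes with an adjusted p under 0.05, the 3 with the smallest p and the one with the highest CPM, the markers Cd3e, Cd8a, Cd4 and Ptprc, and the 5 genes most correlated with the members. Tigit, relatives of the members and further listed genes that bear on the counts or the sum of a list were named in addition. Of the listed symbols, those absent from the table were not analysed here. No protein sequences were used here.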

Additional observations from a re-analysis of the deposited data

How the results depend on the processing

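The 9 genes were refitted under 16 alternatives, which gave 137 log2 fold changes, as a filter of 5 CPM left out 7 of the genes. Of these, 129 kept their direction and stayed over an adjusted p of 0.05, 6 kept their direction and passed it, and 2 reversed, both for Klrg1 (-0.18 without NaCl tumor 3 and -0.15 without H89 tumor 3, in a range up to 1.00 with 1 tumor left out). The number of the 9 genes with an adjusted p under 0.05, 0 in edgeR's test, was 4 with DESeq2, 1 with voom and array weights, 1 without a filter and 0 under the other alternatives. At an unadjusted p under 0.05 it was 4, and it was 7 without a filter (10.2% of all genes, higher in H89 tumors), 1 of the 2 genes tested at a filter of 5 CPM (13.2%), and 4 to 8 with 1 tumor left out (9.58% to 12.4%). The median log2 fold change of the 9 was 0.86 to 1.90 with 1 tumor left out. Over all genes, 208 had an adjusted p under 0.05, against 80 under quantile normalization, 1406 with DESeq2, 1687 with voom and 0 to 12 with 1 tumor left out. The causes of these differences were not tested, and the last of these fits differ in both the number and the identity of the tumors. With the tumor number as a block, 0 genes of all passed the adjusted threshold. In that fit 4 of the 9 were higher with an unadjusted p under 0.05, where 14.0% of all genes were, and the median log2 fold change of the 9 was 1.28. Whether the tumor numbers mark pairs cannot be settled with 3 tumors per group. The correlations of deviations from the group means between tumors of the same number were 0.163, 0.061 and -0.025. Those between tumors of different numbers ranged from -0.373 to 0.350. With CPM of the library total alone, added after the data had been seen, 4 of the 9 genes were separate between groups, where 20.4% of all genes were higher in that way. Counts of 9 to 76 per NaCl tumor limit the precision for Klrb1c, Klrd1, Klre1, Klrc1, Klrg1 and Fasl, and 3 tumors per group limit it for all.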
